A study of Mus musculus with 15 samples.

Results

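The genes described here are 9 genes of interneurons and other neurons that arise in the ganglionic eminences, the ventral part of the foetal forebrain: *Sst*, *Npy*, *Nkx2-1*, *Lhx6*, *Lhx8*, *Sox6*, *Satb1*, *Maf* and *Isl1*. They were chosen by name from the genes that mark these cells, with earlier results of these data known. Shares of members called are therefore descriptions and not independent results. All 9 were found among the 23132 genes kept from the deposited table of read counts. Read counts were available for 15 libraries of *Phf6*-deleted and control mouse cortex, and each gene was followed through all of them. *Phf6* is an X-linked gene encoding a chromatin-binding protein, which is mutated in the intellectual disability disorder Börjeson-Forssman-Lehmann syndrome.

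All foetuses were C57BL/6 males. The E15.5 cortex was used as dissected, from 3 *Phf6+/Y* controls and 5 *Phf6-/Y* foetuses with a germline deletion of *Phf6*, so that every cell of the foetus carried the deletion. The E16.5 cortical neurons were dissociated and cultured for 1 day in conditions that favour neurons, from 3 *Phf6+/Y;Nes-creTg/+* controls and 4 *Phf6lox/Y;Nes-creTg/+* foetuses. Both groups of neurons carried the Nes-cre transgene, which expresses Cre recombinase in neural progenitors, and neither group of cortices did. The cortices came from litters 1 to 3 and the neurons from litters 4 to 7. Each of litters 1 to 6 held 1 control with 1 or 2 deleted foetuses, and litter 7 held 1 deleted foetus and no control.

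Libraries held between 16858007 and 31157700 counted reads. *Phf6* reads, counted over the whole gene, fell to 42.4 to 55.2 CPM (counts per 1000000 reads) in *Phf6-/Y* cortex from 149 to 191 CPM in control cortex. In *Phf6lox/Y;Nes-creTg/+* neurons *Phf6* was at 59.9 to 85.8 CPM, against 228 to 259 CPM in control neurons, so every library matched its label (FDR = 1.05e-05 and 5.42e-09, edgeR). Genes of cortical glutamatergic neurons, such as *Neurod6* and *Tbr1*, summed to 1686 to 2872 CPM over the 12 genes listed in the cortices and to 3573 to 3947 CPM in the neurons. Endothelial genes summed to 135 to 294 CPM over 6 genes in the cortices and to 3.74 to 7.83 CPM in the neurons. One library stood apart from its group: *Phf6-/Y* cortex 1, of litter 3, had the lowest glutamatergic sum (1686 CPM), 38.9 CPM of *Gbx2*, a homeobox gene of the ventral forebrain and thalamus whose median in *Phf6-/Y* cortex was 5.31 CPM, and the highest *Nkx2-1*, *Lhx8* and *Isl1*. In the cortex, *Lhx8* and the members whose sign changed are therefore also given without litter 3. The other members and the gene lists are given there only with that litter. Each sample is a mixture of cells, so fewer cells of a type and less RNA in each cell cannot be told apart.

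Most interneurons of the cortex that contain somatostatin are born in the medial ganglionic eminence and migrate tangentially into the cortex. There, the homeodomain protein NKX2-1 sets the identity of progenitors and switches on the LIM homeobox gene *Lhx6*, which migrating interneurons keep while those bound for the cortex switch *Nkx2-1* off. SOX6 and SATB1 act after LHX6 in the maturation of these cells, MAF favours the somatostatin fate, and *Sst* and *Npy* encode the neuropeptides that the cells later release. LHX8 and ISL1 belong to the ventral branch of the same territory and are required for cholinergic neurons of the basal forebrain and striatum, where NKX2-1 persists.

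*Sst* has a textbook regulatory sequence just before its start, the cyclic AMP response element, to which the transcription factor CREB binds. The element is shown because *Sst* was the member with the smallest FDR in the neurons, below. It is the palindrome TGACGTCA and lies within this stretch of 30 bases, written from 5′ to 3′ on the transcribed sense strand (RefSeq, GRCm38.p6, chr16:23890874-23890903, minus strand), with the element in capitals.
Sst: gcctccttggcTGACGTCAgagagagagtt
The first base of the element lies 48 bases before the start of the RefSeq transcript at position 23890844, whereas the GENCODE vM21 transcript starts farther upstream, at 23890958, and holds the stretch in its first exon. The 250 bases before the start hold TGACGTCA in 1.55% of all 32851 RefSeq promoters, and in 1 of the 19 promoters listed for the 8 members that have an entry. The homeodomain core TAATTA, which is also its own reverse complement, was found in 4.84% of all promoters over the same window and in none of those 19. Binding was not measured in these samples.

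*Sst* had the highest level per length in every group. In control cortex it was at 90.1 ± 15.3 CPM per kilobase of exon (SD, n = 3), followed by *Lhx6* at 31.9 ± 2.41, *Npy* at 24.4 ± 2.00 and *Satb1* at 19.6 ± 0.206 CPM per kilobase. Each of these lay apart from the next, whereas *Satb1*, *Nkx2-1* (16.2 ± 7.68), *Isl1* (13.8 ± 2.64) and *Sox6* (13.7 ± 1.39 CPM per kilobase) overlapped their neighbours in this order. *Lhx8* (7.33 ± 3.58) and *Maf* (6.47 ± 0.945 CPM per kilobase) came last and overlapped each other. In control neurons *Sst* was at 40.5 ± 18.4 CPM per kilobase, apart from *Satb1* at 16.4 ± 1.36, which overlapped *Lhx6* at 16.0 ± 1.39 CPM per kilobase. *Lhx8* (1.05 ± 1.52), *Nkx2-1* (0.617 ± 0.743) and *Isl1* (0.559 ± 0.664 CPM per kilobase) came last there, with SDs larger than their means.

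**Figure D1:**
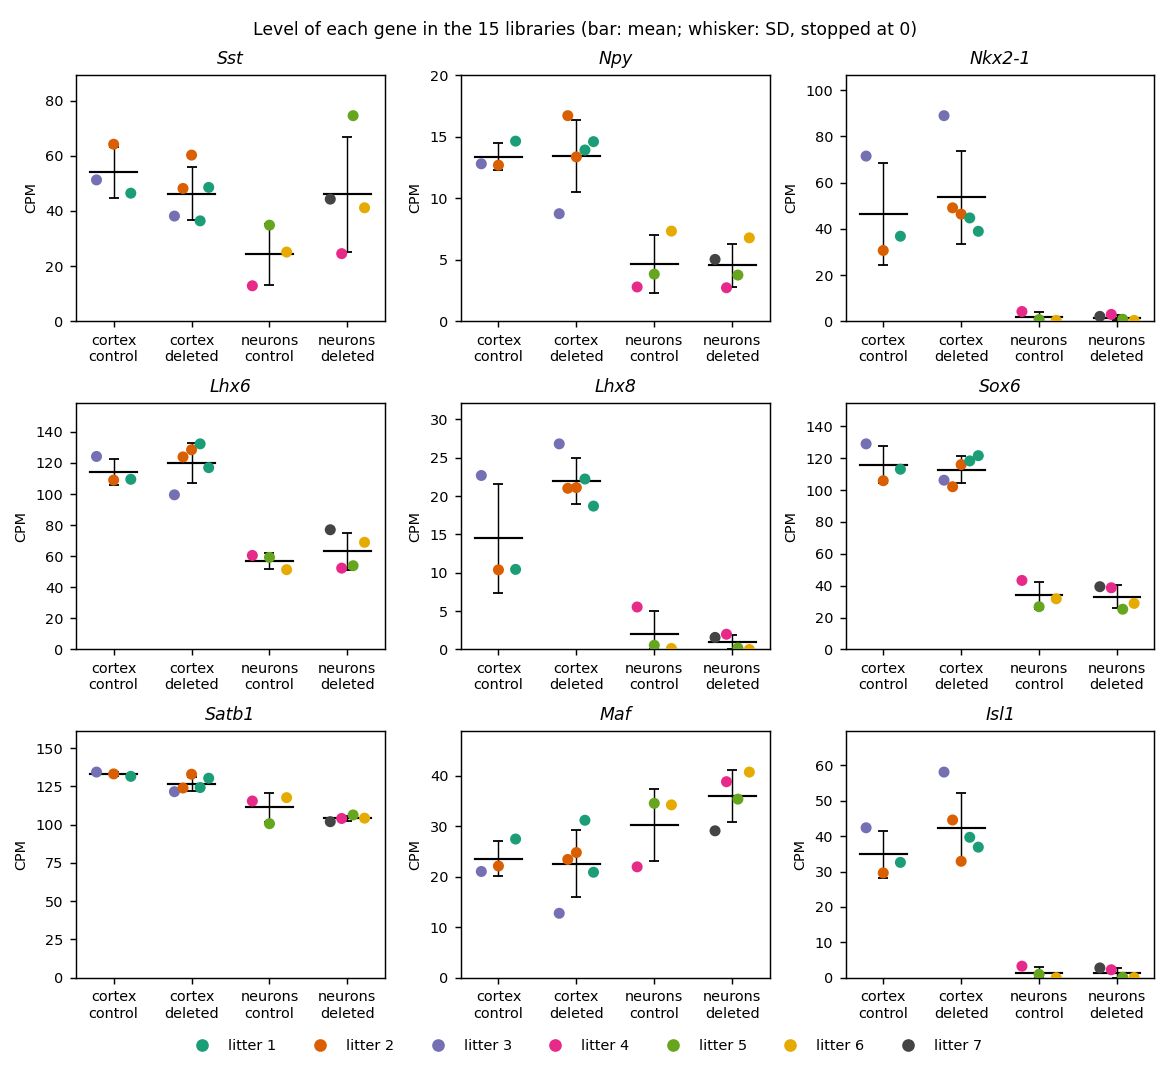
Level of each of the 9 genes in CPM (y axis, linear, from 0) in the 15 libraries, by group (x axis), with points coloured by litter, bars for the group mean and whiskers for the SD. *Nkx2-1*, *Lhx8* and *Isl1* lie near 0 in the neurons, *Satb1* lies between 100.6 and 134 CPM in all groups, and *Sst* is the gene whose deleted neurons spread highest above the controls.

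The 9 genes were next compared between control neurons and control cortex, which differ in age, dissociation, culture and the Nes-cre transgene. In this comparison 7 of 9 members had lower levels in neurons at an FDR below 0.05 and none had higher levels (edgeR's quasi-likelihood test, Benjamini-Hochberg adjustment over 14320 genes). Among all genes 51.1% passed this threshold, 26.4% lower and 24.7% higher in neurons, and the members' median log2 fold change was -1.53 against -0.03 for all genes tested. The ventral genes differed most. *Nkx2-1* was at 71.5, 30.6 and 36.8 CPM in control cortices 1 to 3 and at 4.22, 0.738 and 0.351 CPM in control neurons 1 to 3 (log2 fold change -4.64, standard error 0.92, FDR = 0.0148, edgeR). *Isl1* was at 42.4, 29.6 and 32.6 CPM in the cortices and at 3.26, 0.969 and 0 CPM in the neurons (log2 fold change -4.56, standard error 0.93, FDR = 0.0151, edgeR). Control neurons 1, of litter 4, were highest for both genes among the control neurons, and cortex and neurons did not overlap.

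*Lhx8* did not overlap between the control groups either, at 10.4 to 22.7 CPM in cortex and 0.132 to 5.54 CPM in neurons, but its spread among neurons left it above the threshold (log2 fold change -2.75, standard error 1.21, FDR = 0.130, edgeR). Leaving out litters 3 and 4 was chosen after seeing the data, and those litters held the highest *Lhx8* control of each tissue. Without them *Lhx8* passed, with a log2 fold change of -4.92 (FDR = 8.89e-09, edgeR). The control neurons left had 12 and 3 reads of *Lhx8*, so that fit does not settle the call. The remaining members changed less. *Sox6* fell by 1.77 on the log2 scale (FDR = 1.03e-05), *Npy* by 1.53 (FDR = 0.00128), *Lhx6* by 1.00 (FDR = 2.65e-06) and *Satb1* by 0.26 (FDR = 0.0204, all edgeR), and in each of these 4 all control neurons lay below all control cortices. *Sst* fell by 1.16 (FDR = 0.0475, edgeR). *Maf* had a log2 fold change of 0.36 and did not pass (FDR = 0.112, edgeR). In all, 8 of 9 members lay wholly lower in neurons, as did 31.6% of all genes. Leaving out 1 library kept every fold change of the 7 called genes negative. The call of *Sst* was lost without control cortex 1, 2 or 3 or control neurons 3 (FDR from 0.0826 to 0.146), those of *Isl1* and *Satb1* without control cortex 1 or control neurons 2 (FDR from 0.0502 to 0.155), and that of *Nkx2-1* without control neurons 2 (FDR = 0.0566, edgeR).

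When the *Phf6*-deleted libraries of each kind were compared in the same way in place of the controls, *Sst* no longer differed between neurons and cortex at the threshold (log2 fold change -0.02, standard error 0.28, FDR = 0.959, edgeR), *Lhx8* passed with -4.43 (FDR = 1.0e-04, edgeR), and *Maf* passed with 0.66 (FDR = 0.0165, edgeR). The other 6 members stayed lower in neurons with FDR below the threshold. These libraries differ also in the kind of deletion, germline in the cortex and by Nes-cre in the neurons.

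**Figure D2:**
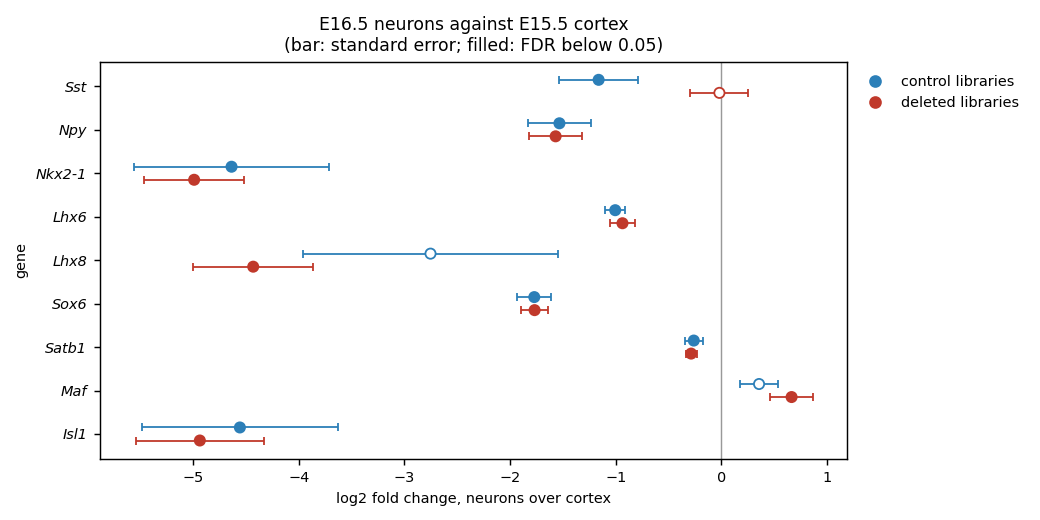
Log2 fold change of neurons over cortex (x axis) for each of the 9 genes (y axis) among control libraries (blue) and among *Phf6*-deleted libraries (red), with standard errors as bars and filled points for FDR below 0.05. *Sst* moves from -1.16 in controls to -0.02 in deleted libraries, and *Lhx8* from -2.75 to -4.43.

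In the E15.5 cortex, the comparison of *Phf6-/Y* with *Phf6+/Y* foetuses asked whether loss of *Phf6* changed these genes in the intact tissue. *Lhx8* was the only member called at an FDR below 0.05, so 1 of 9 members was called, where 0.386% of all 14750 genes tested were called in either direction and 0.319% as higher. *Lhx8* was at 22.7, 10.4 and 10.4 CPM in control cortices 1 to 3, and at 26.8, 21.0, 21.1, 22.2 and 18.7 CPM in *Phf6-/Y* cortices 1 to 5. Control cortex 1, of litter 3, had 2.19 times the level of the lowest control and lay inside the range of the *Phf6-/Y* cortices, so the groups overlapped. Within litters, all 5 *Phf6-/Y* cortices exceeded their own control, 2.13 and 1.79 times in litter 1, 2.02 and 2.03 times in litter 2, and 1.18 times in litter 3. All *Phf6-/Y* libraries exceeded their litter's control in 8.18% of all genes. With litter in the model, *Lhx8* rose 1.70-fold, 0.77 on the log2 scale (standard error 0.14, FDR = 0.0393, edgeR). Without litter 3 it was 0.99 (FDR = 0.00891, edgeR), and without the litter term 0.59 (FDR = 0.717, edgeR). With 1 library left out it stayed between 0.64 and 1.00, but the call was lost without control cortex 2 (FDR = 0.305) or 3 (0.281) and without *Phf6-/Y* cortex 2 (0.152), 3 (0.0760) or 4 (0.0617, all edgeR).

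**Figure D3:**
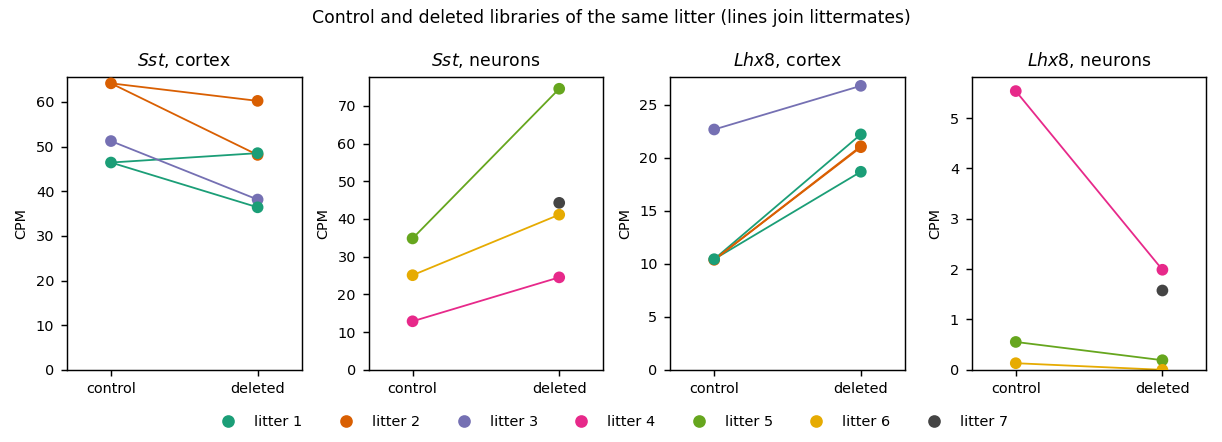
*Sst* and *Lhx8* in CPM (y axes, linear, from 0) in control and *Phf6*-deleted libraries (x axes) of cortex and of neurons, with lines joining littermates and colours marking litters. *Sst* rises along all 3 lines in the neurons and along 1 of 5 in the cortex, whereas *Lhx8* rises along all 5 lines in the cortex and falls along all 3 in the neurons, from 5.54 CPM or less.

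The other ventral members had positive log2 fold changes in the cortex but missed the FDR threshold. *Nkx2-1* was at 71.5, 30.6 and 36.8 CPM in control cortices 1 to 3 and at 88.9, 49.1, 46.3, 44.7 and 38.9 CPM in *Phf6-/Y* cortices 1 to 5. Its groups overlapped, and each *Phf6-/Y* cortex again exceeded its own litter's control, by 1.06 to 1.60 times (log2 fold change 0.38, standard error 0.09, FDR = 0.137, edgeR). DESeq2 gave *Nkx2-1* an FDR of 0.0229 and thus a second called member. *Isl1* was at 42.4, 29.6 and 32.6 CPM in the controls and at 58.1, 44.6, 32.9, 39.7 and 36.9 CPM in *Phf6-/Y* cortices 1 to 5 (log2 fold change 0.35, standard error 0.10, FDR = 0.225, edgeR). All 5 exceeded their litter's control here too, by 1.11 to 1.51 times. The ratio of *Lhx8* to *Nkx2-1* CPM within a library, chosen after the values had been seen, was 0.284 to 0.339 in control cortices and 0.428 to 0.497 in *Phf6-/Y* cortices 2 to 5, but 0.301 in *Phf6-/Y* cortex 1. The mean ratio was 1.36-fold higher in *Phf6-/Y* cortex, and the difference did not pass an exact two-sided permutation test (p = 0.107, adjusted over 3 ratios 0.321, smallest possible unadjusted p = 0.0357). That test left the litters out. With the group sizes of the 3 ratios its adjusted p could not have fallen below 0.05, so it cannot decide the question.

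*Sst* in the cortex was at 51.2, 64.2 and 46.4 CPM in controls 1 to 3 and at 38.1, 48.1, 60.2, 36.4 and 48.5 CPM in *Phf6-/Y* cortices 1 to 5. Of these 5, 4 were below their litter's control and *Phf6-/Y* cortex 5 was above it (log2 fold change -0.26, standard error 0.11, FDR = 0.422, edgeR). *Lhx6*, *Sox6*, *Satb1*, *Maf* and *Npy* had log2 fold changes between -0.18 and 0.05, with FDR from 0.702 to 0.917 in edgeR. *Lhx6* was above its litter's control in all 4 *Phf6-/Y* cortices of litters 1 and 2 and below it in litter 3. The fold changes of the 9 members had a median of -0.04 against -0.002 for all genes tested, and 4 were positive.

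In the E16.5 neurons, which asked the same question of *Phf6* deletion in neural cells after culture, *Sst* was the only member called, again 1 of 9, where 0.273% of all 13909 genes were called in either direction and 0.194% as higher. *Sst* was at 12.9, 34.8 and 25.1 CPM in control neurons 1 to 3 and at 44.3, 24.5, 74.5 and 41.1 CPM in *Phf6lox/Y;Nes-creTg/+* neurons 1 to 4. The groups overlapped, because litter 4 was low and litter 5 was high in both genotypes. Within litters, the deleted neurons had 1.90 times the level of their control in litter 4, 2.14 times in litter 5 and 1.64 times in litter 6, and all deleted libraries exceeded their litter's control in 16% of all genes. With litter in the model, *Sst* rose 1.89-fold, 0.92 on the log2 scale (standard error 0.10, FDR = 5.52e-04, edgeR), with the fourth smallest p of the comparison. The call held with each of the 7 libraries left out in turn, with log2 fold changes from 0.81 to 1.02 and FDR up to 0.0078 (edgeR). It rested on the comparison within litters: without the litter term the log2 fold change was 0.93 and the FDR 0.810 (edgeR).

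None of the transcription factors that precede *Sst* in these cells passed the test in the neurons. *Lhx6* was at 60.5, 59.3 and 51.4 CPM in control neurons 1 to 3 and at 77.0, 52.4, 53.9 and 69.0 CPM in deleted neurons 1 to 4, below the litter's control in litters 4 and 5 and above it in litter 6 (log2 fold change 0.03, standard error 0.10, FDR = 0.965, edgeR). The ratio of *Sst* to *Lhx6* CPM, chosen after the values had been seen, was 0.213, 0.588 and 0.488 in control neurons 1 to 3 and 0.575, 0.468, 1.38 and 0.597 in deleted neurons 1 to 4. It was higher in the deleted neurons of each of litters 4 to 6, whereas the unpaired difference in mean, 1.74-fold, did not pass an exact two-sided permutation test (p = 0.343, adjusted over 3 ratios 0.343). That test could not have gone below 0.0571 with 3 and 4 libraries. In the cortex the same ratio was 0.413 to 0.589 in controls and 0.275 to 0.469 in *Phf6-/Y* foetuses (exact two-sided permutation p = 0.250, adjusted 0.343).

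*Sox6* had a log2 fold change of -0.13 (FDR = 0.674, edgeR) and was lower than the control in all 3 litters, at 0.894 to 0.941 times its level, as were 15.7% of all genes. *Satb1* had a log2 fold change of -0.08 (FDR = 0.744) and *Npy* of -0.06 (FDR = 0.958, both edgeR). *Npy* was at 2.79, 3.83 and 7.32 CPM in control neurons 1 to 3, and the deleted neurons of the same litters were at 2.72, 3.76 and 6.78 CPM. *Npy* was thus at 0.925 to 0.981 times its litter's control where *Sst*, the other neuropeptide gene, was at 1.64 to 2.14 times. The difference between the 2 genes was not tested. The log2 fold change of *Maf* was 0.37 (standard error 0.12, FDR = 0.277, edgeR), and it exceeded the control 1.77 times in litter 4, 1.02 times in litter 5 and 1.19 times in litter 6. Its log2 fold change was 0.15 without litter 4, and it was called without control neurons 3 (0.44, FDR = 0.0340, edgeR).

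*Nkx2-1*, *Lhx8* and *Isl1* were near their detection limit in most neurons. *Lhx8* had 151, 12 and 3 reads in control neurons 1 to 3 and 32, 54, 3 and 0 reads in deleted neurons 1 to 4. A count of 0 in deleted neurons 4 allows a level of up to 0.144 CPM, 3 reads of that library, by counting error alone. In CPM, *Lhx8* was at 5.54, 0.554 and 0.132 in the controls and at 1.58, 1.99, 0.191 and 0 in the deleted neurons. It was lower than the control in each of litters 4 to 6, 0.359 times in litter 4, while litter 5 rests on 12 and 3 reads and litter 6 on 3 and 0 reads (log2 fold change -1.59, standard error 0.51, FDR = 0.258, edgeR). *Isl1* had 89, 21 and 0 reads in the controls and 56, 61, 2 and 1 reads in the deleted neurons, with no common direction (FDR = 0.600, edgeR). *Nkx2-1* had a log2 fold change of -0.15 (FDR = 0.938, edgeR), which was 0.21 without litter 4. The level followed the litter, as *Nkx2-1* was at 2.12 to 4.22 CPM in the 3 libraries of litters 4 and 7 and at 0.351 to 0.891 CPM in the 4 libraries of litters 5 and 6. The 9 members had a median log2 fold change of -0.08 in the neurons against 0.001 for all genes tested.

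Whether the effect of genotype differed between neurons and cortex was then tested in 1 fit over all 15 libraries. Tissue went together with age, dissociation, culture, the Nes-cre transgene and the kind of deletion, germline or by Nes-cre. Which of these a difference follows cannot be told apart. Of 15001 genes, 2 were called at an FDR below 0.05 (0.0133%), and both are members: *Sst* and *Lhx8*, with the smallest and the second smallest p. The members were chosen with earlier results of these data known, so their share among the called genes is not an independent result. The genotype effect on *Sst* was 1.17 higher in neurons than in cortex on the log2 scale (standard error 0.16, FDR = 0.0236), and that on *Lhx8* was 2.31 lower (standard error 0.35, FDR = 0.0336, edgeR's interaction term with litter in the model). *Sst* thus had a positive fold change in neurons and a negative one in cortex, and *Lhx8* the opposite, although of these 4 fold changes only *Sst* in neurons and *Lhx8* in cortex were called by themselves. Neither call was stable. With 1 library left out, *Sst* was called in 7 of 15 fits (differences of 1.07 to 1.27, FDR up to 0.352, without control neurons 2), and *Lhx8* in 6 of 15 (-2.65 to -2.17, FDR up to 0.891, without control neurons 1). Without litters 3 and 4, the differences were 1.10 (FDR = 0.374) and -2.87 (FDR = 0.663, edgeR), neither called.

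*Isl1* (difference -1.15, FDR = 0.703), *Nkx2-1* (-0.67, FDR = 0.888) and *Maf* (0.54, FDR = 0.954) had the next differences in size among the members, and were not called. *Npy*, *Satb1*, *Lhx6* and *Sox6* had differences between -0.10 and 0.01 on the log2 scale (FDR of 0.957 or above, edgeR).

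**Figure D4:**
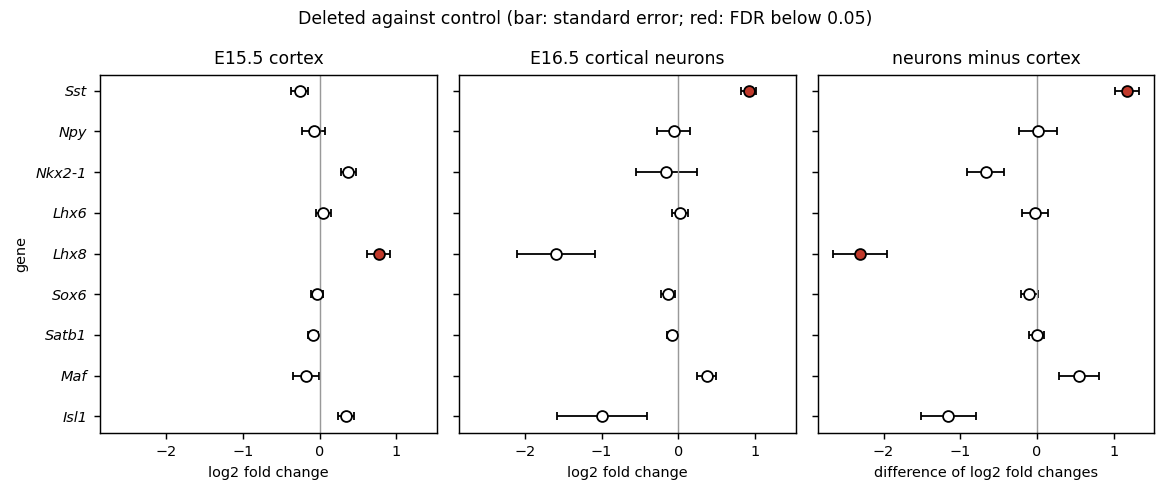
Log2 fold change of *Phf6*-deleted over control libraries (x axes) for the 9 genes (y axis) in cortex and in neurons, and the difference of both, with standard errors as bars and red points for FDR below 0.05. *Sst* and *Lhx8* are red in the third panel, at 1.17 and -2.31, and each is red in 1 of the other panels.

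Among the members, levels moved together in sets. After the mean of each group had been subtracted from log2 CPM, *Lhx8* followed *Nkx2-1* (Pearson's r = 0.963, Spearman's rho = 0.957) and *Isl1* (r = 0.940, rho = 0.814) over the 15 libraries, which share litters and contain both tissues. Within tissues *Lhx8* and *Nkx2-1* had r = 0.892 over 8 cortices and r = 0.988 over 7 neuron libraries. *Lhx8* deviated by -2.69 to 2.62 in the neurons and by -0.377 to 0.745 in the cortex, so the neurons weigh most in r over all libraries. The neuron values rest on few reads, 0 to 151 of *Lhx8*, 8 to 115 of *Nkx2-1* and 0 to 89 of *Isl1*. *Sst* did not follow *Lhx6* (r = 0.0337, rho = -0.0536) and ran opposite to *Sox6* (r = -0.750, rho = -0.625), the latter mostly in the neurons (r = -0.865) and hardly in the cortex (r = -0.106). These are descriptions of 15 libraries in 7 litters.

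**Figure D5:**
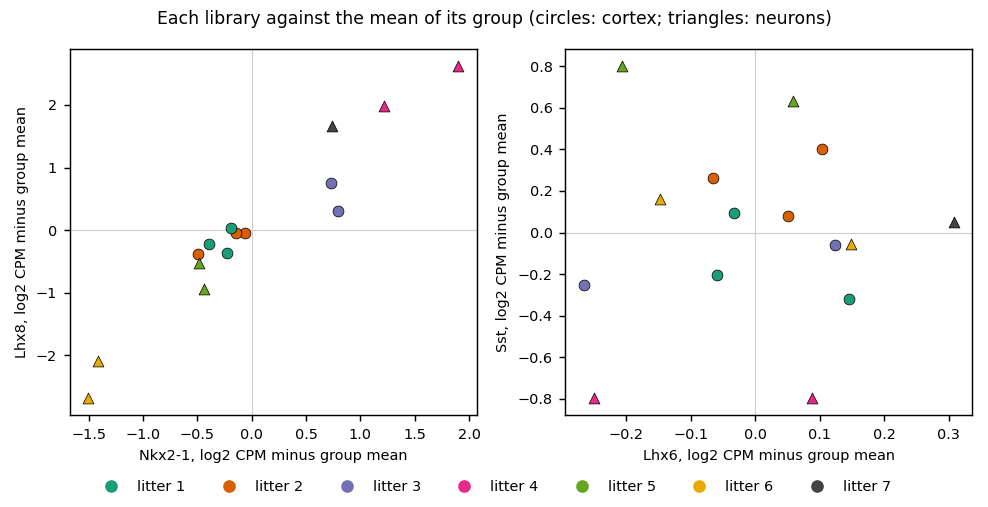
Log2 CPM of each library minus the mean of its group, for *Lhx8* against *Nkx2-1* (left) and *Sst* against *Lhx6* (right), with circles for cortex, triangles for neurons and colours for litters. *Lhx8* and *Nkx2-1* lie along a line with litters 4 and 7 at the top and litter 6 at the bottom, whereas *Sst* and *Lhx6* form no line.

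Over all 15001 genes that passed the filter, the 5 genes most like *Lhx8* by this measure were *Myo10*, a motor protein of filopodia (r = 0.969), *Zic4*, a zinc finger transcription factor (r = 0.963), *Nkx2-1* (r = 0.963), *Asb4* (r = 0.958) and *AI606473* (r = 0.955). For *Sst* they were *Fkbpl* (r = 0.883), *Brinp1* (r = 0.878), *Cabp1*, a neuronal calcium-binding protein (r = 0.875), *Asphd1* (r = 0.872) and *Ppm1j*, a protein phosphatase (r = 0.866). None of the other 8 members was among the genes most like *Sst*. For these 5 the likeness was closer in the neurons (r from 0.889 to 0.978) than in the cortex (0.576 to 0.741). The 5 genes most like *Lhx8* had r from 0.840 to 0.948 in the cortex. In the neurons, where *Lhx8* had 0 to 151 reads, they had r from 0.959 to 0.988.

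Other genes of the same cells were read from lists. Of 20 further genes of the medial ganglionic eminence and of migrating interneurons, none was called in either genotype comparison. In the cortex, their log2 fold changes had a median of 0.001 and were highest for *Etv1*, a transcription factor gene (0.41, FDR = 0.307, edgeR). In the neurons they ran from -0.48 (*Sp9*, FDR = 0.464) to 0.57 (*Cort*, the cortistatin gene related to *Sst*, FDR = 0.766, both edgeR), with a median of 0.02. At an unadjusted p below 0.05 there were 6 of 20 in the cortex and 5 of 20 in the neurons, where 10.5% and 10.3% of all genes had such a p. *Gad1*, which encodes an enzyme of GABA synthesis, was at 81.3 ± 7.66 CPM (SD, n = 3) in control and 95.1 ± 7.89 CPM (SD, n = 5) in *Phf6-/Y* cortex, and at 43.9 ± 9.18 (SD, n = 3) and 47.8 ± 7.96 CPM (SD, n = 4) in neurons. In control neurons 14 of these 20 genes were lower and 2 higher than in control cortex at an FDR below 0.05 (edgeR). Among all genes 26.4% were lower and 24.7% higher in that comparison. The 2 higher ones were *Npas1* and *Zeb2*, and *Gad2* fell by 1.83 on the log2 scale (FDR = 1.42e-07, edgeR).

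Of 9 genes of ventral cholinergic neurons, all 9 had positive fold changes in *Phf6-/Y* cortex, with a median of 0.54, and 1 was called. This was *Zic4*, at 31.2 to 56.4 CPM in control and 51.5 to 84.9 CPM in *Phf6-/Y* cortex, with the highest library of each group in litter 3 (log2 fold change 0.73, standard error 0.08, FDR = 7.20e-04, edgeR). *Ache*, encoding acetylcholinesterase, was wholly higher in *Phf6-/Y* cortex, at 6.29 to 10.1 against 3.67 to 6.29 CPM, as were 2.47% of all genes, and did not pass (log2 fold change 0.71, FDR = 0.0900, edgeR). *Chat*, encoding the enzyme that makes acetylcholine, was at or below 0.502 CPM in every library. In the neurons 5 of these 9 genes could be tested and none was called, with a median of -0.08. The summed level of the 9 genes moved with *Lhx8*: it was 54.8 to 93.3 CPM in control and 81.8 to 161 CPM in *Phf6-/Y* cortex, and the highest library of each group was again in litter 3. Its part in the result for *Lhx8* was not tested.

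Of the receptors for somatostatin and neuropeptide Y, 6 of 10 genes could be tested in the cortex and 5 in the neurons, and none was called. In the cortex 1 of 6 had a positive log2 fold change, *Npy2r* (0.22, FDR = 0.877, edgeR), and the list's median was -0.17. In the neurons 2 of 5 were positive, *Sstr1* (0.38, FDR = 0.382) and *Npy1r* (0.16, FDR = 0.704), the lowest was *Npy2r* (-0.92, FDR = 0.667, all edgeR), and the median was -0.37. *Sstr3* was at 5.95 to 6.23 CPM in control neurons and 2.54 to 4.95 CPM in deleted neurons, with no overlap (log2 fold change -0.72, standard error 0.23, FDR = 0.262, edgeR), as in 3.62% of all genes. In the cortex its log2 fold change was -0.63 (FDR = 0.289, edgeR). *Sstr2*, another somatostatin receptor gene, had log2 fold changes of -0.31 in cortex (FDR = 0.485) and -0.37 in neurons (FDR = 0.143, both edgeR).

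Genes of neighbouring territories were also read. Of 8 tested genes of the caudal ganglionic eminence, which makes other interneurons, 6 had positive log2 fold changes in each genotype comparison, with a median of 0.20 in the cortex and 0.43 in the neurons, and 1 was called in each. *Calb2*, encoding calretinin, rose in *Phf6-/Y* cortex (log2 fold change 0.56, standard error 0.11, FDR = 0.0393, edgeR). In the neurons, *Reln*, encoding the secreted protein reelin, rose from 81.9 to 129 CPM in controls to 144 to 315 CPM in deleted neurons (log2 fold change 0.81, standard error 0.06, FDR = 1.40e-05, edgeR). Reelin is also made by Cajal-Retzius cells of the cortex. *Prox1*, a homeobox gene of these interneurons, exceeded the control in each of litters 4 to 6 and did not pass (log2 fold change 0.62, standard error 0.12, FDR = 0.0518, edgeR). *Adarb2* (0.50, FDR = 0.304) and *Cck* (0.48, FDR = 0.239, both edgeR) were not called either but, like *Reln*, were wholly higher in deleted neurons, as were 3.61% of all genes. The lowest of the list was *Sp8* (-0.37, FDR = 0.610, edgeR). All 9 listed genes, *Reln* included, summed to 215 to 229 CPM in control and 270 to 477 CPM in deleted neurons. In the cortex they summed to 401 to 458 CPM in control and 469 to 565 CPM in *Phf6-/Y* libraries. The sums did not overlap in either tissue, and no share over all genes was computed for such sums. In the neurons *Reln* by itself did not overlap either, so the separation of the sum there is not a second result. The part of these 9 genes in the results for *Sst* and *Lhx8* was not tested. Of 16 genes of the lateral ganglionic eminence and striatum, *Foxp2*, a forkhead transcription factor gene, rose in the cortex (log2 fold change 0.44, standard error 0.08, FDR = 0.0368, edgeR), and none of 15 tested was called in the neurons.

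No gene was called in either genotype comparison among the lists for cortical glutamatergic neurons (12 genes tested), cortical progenitors (8), microglia and macrophages (8 in the cortex and 6 in the neurons), endothelium (6 and 2), red blood cells (6 and 4) and glia (7). In the cortex 1 of the 12 glutamatergic genes had a positive log2 fold change, and their median was -0.19. In the choroid plexus list, *Ttr* rose in the deleted neurons (log2 fold change 2.84, FDR = 1.88e-04, edgeR), from 0.403 to 2.12 CPM in controls to 2.43 to 22.3 CPM. The choroid plexus list summed to 2.25 to 477 CPM in control and 3.05 to 337 CPM in *Phf6-/Y* cortex. In the neurons it summed to 1.36 to 3.92 CPM in controls and 3.64 to 24.5 CPM in deleted libraries, with the highest of each group in litter 5, in which *Sst* was also highest. Its part in the result for *Sst* was not tested.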

How the data were processed

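RNA was sequenced from 15 libraries (polyadenylated RNA, stranded kit), 1 foetus each. The authors mapped reads with Rsubread (mm10) and summed them by Entrez gene in featureCounts, using the RefSeq genes built into it. The deposited values are raw counts. The strand setting of the counting is not given in the sources used here, and among the members only *Sox6* overlaps other annotated genes. Rows without a gene ID (1029 of 27179, 0.349% to 0.605% of counts) were left out, as were 875 unmatched IDs, 835 pseudogenes, 35 ribosomal RNA genes and 1273 predicted genes. Symbols and positions came from RefSeq (GRCm38).

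Each tissue was fitted alone with filterByExpr, TMM scaling and edgeR 4.0.16 robust quasi-likelihood tests, with litter as a term (R 4.3.3), and Benjamini-Hochberg adjustment over all genes, at an FDR threshold of 0.05. The difference of genotype effects was an interaction over all 15 libraries, with litter nested. Control tissues were compared without litter. Litters, taken from the labels, pair the samples. Replicate numbers do not. DESeq2 1.42.0, limma 3.58.1 (limma-trend), other scaling, no filter on low counts, other blocks and leaving out libraries were alternatives. Leaving out litters 3 and 4, and the ratios, were chosen after seeing the data. CPM used TMM library sizes over all 15 libraries, and log2 CPM a prior count of 2. Ratios were tested with scipy 1.17.1. A count of 0 was given a floor of 3 reads. Intervals and floors cover counting error only. The fits were tested on simulated data. The members and lists were chosen with earlier results of these data known. Genes named are the members, *Phf6*, list genes that were called or bound their list's range (some results are not reported here), the 5 genes most like *Sst* and *Lhx8*, and some chosen after their values were seen (*Gad1*, *Gad2*, *Gbx2*, *Ache*, *Chat*, *Sstr2*, *Sstr3*, *Npy1r*, *Prox1*, *Adarb2* and *Cck*).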

Additional observations from a re-analysis of the deposited data

Results flagged for a closer look

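Of the 18 combinations of a member with a group of 4 or 5 libraries, 1 had a library far from the others, where chance gives about 1 in 20. *Nkx2-1* was at 88.9 CPM in *Phf6-/Y* cortex 1 and at 49.1 CPM in the next highest *Phf6-/Y* cortex, a gap of 0.797 of the group's whole range, above Dixon's critical value of 0.71 for 5 samples. The control of its litter, control cortex 1, was also the highest of its group, at 71.5 CPM.

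For 2 members the effect of genotype was called as different between neurons and cortex by edgeR's interaction term, but neither call was stable. The neurons and the cortices differ also in age, culture and the kind of deletion, which cannot be told apart from tissue. With 1 library left out, *Sst* was called in 7 of 15 fits and *Lhx8* in 6 of 15. The difference of log2 fold changes was 1.17 for *Sst* (standard error 0.16, FDR = 0.0236) and -2.31 for *Lhx8* (standard error 0.35, FDR = 0.0336). For *Sst*, all 3 deleted neuron libraries with a control in their litter were higher than it, and 4 of 5 *Phf6-/Y* cortices were lower than theirs. For *Lhx8*, all 3 were lower and all 5 were higher, with neuron libraries of 0 to 151 reads.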

How the results depend on the processing

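Genes at few reads, 3 to 5 libraries a group and litters with 1 control each limit these results. Calls of *Sst* and *Lhx8* kept their direction under all alternatives. They held under limma-trend, both other scalings and no filter on low counts, except *Sst* between control tissues, which without the filter had a log2 fold change of -1.16 and an FDR of 0.0982 (edgeR). DESeq2 called 199 genes in the cortex, 2 of them members (*Lhx8* and *Nkx2-1*), 62 in the neurons and 12 for the difference, against 57, 38 and 2. Without a filter 114, 297 and 5 genes were called, with 2 members in the neurons (*Sst* and *Maf*). Library totals called 73 genes in the neurons, 46 higher and 27 lower, against 27 and 11, and moved the median of all genes between control tissues from -0.03 to -0.17. There, 2459 genes were higher and 5003 lower, against 3541 and 3777.

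Without litter as a term (no replicate block), 1 gene was called in the cortex, 1 in the neurons and 0 for the difference, with 0 members in each, while 555 genes had an unadjusted p below 0.05 for the difference. *Lhx8* in the cortex was then 0.59, *Sst* in the neurons 0.93, and the differences were 1.14 for *Sst* and -1.69 for *Lhx8*. The sign turned for *Npy* in the cortex (0.0049) and for the differences of *Npy* (-0.034), *Lhx6* (0.070) and *Sox6* (0.0030). A replicate block on the replicate number, which does not follow the litters, called 5 genes in the neurons, 0 for the difference (615 at an unadjusted p below 0.05) and 0 members in any of these comparisons or in the cortex. It gave 0.74 for *Lhx8* in the cortex, 0.96 for *Sst* in the neurons, and differences of 1.12 and -1.07. The sign turned in the neurons for *Nkx2-1* (0.62), *Sox6* (0.025) and *Isl1* (0.58), and for the differences of *Npy* (-0.11), *Lhx6* (0.048), *Sox6* (0.12) and *Isl1* (0.035). The neurons' numbers cross the litters, and the cause of each change was not tested.

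Without litter 3, 10 genes were called in the cortex, and *Npy* (0.095), *Sox6* (0.056) and *Maf* (0.016) turned positive. Without litter 4, 108 genes were called in the neurons, and *Nkx2-1* was 0.21. Without both, 0 genes and 0 members were called for the difference (662 at an unadjusted p below 0.05), which was 1.10 for *Sst*, -2.87 for *Lhx8*, -0.18 for *Npy* and 0.0019 for *Satb1*, and *Lhx8* between control tissues was -4.92. Among deleted libraries, *Sst* between tissues was -0.019 and *Lhx8* -4.43.

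With 1 library left out, 7 (without control cortex 2) to 81 genes (without *Phf6-/Y* cortex 5) and 0 to 1 members were called in the cortex. In the neurons 16 (without control neurons 2) to 494 genes (without control neurons 3) and 1 to 2 members were called, the second being *Maf*. For the difference 0 to 4 genes and 0 to 2 members were called, and between control tissues 4 to 9 members, 4 without control cortex 1 or control neurons 2. The cortex fold changes ran from 0.64 to 1.00 for *Lhx8*, -0.25 to 0.10 for *Npy*, -0.030 to 0.20 for *Lhx6*, -0.11 to 0.063 for *Sox6* and -0.34 to 0.023 for *Maf*, the last 4 highest without *Phf6-/Y* cortex 1. The neuron fold changes ran from -0.35 to 0.22 for *Nkx2-1* and -0.18 to 0.15 for *Lhx6*. The differences ran from 1.07 to 1.27 for *Sst*, -2.65 to -2.17 for *Lhx8*, -0.16 to 0.19 for *Npy*, -0.23 to 0.091 for *Lhx6* and -0.089 to 0.039 for *Satb1*. Between control tissues *Sst* ran from -1.49 to -0.85 and *Lhx8* from -5.41 to -2.20.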

Other observations

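Other gene groups also differed between control neurons and control cortex, beside the 7 of 9 members that were lower. Among all 14320 genes tested in this comparison, 26.4% were lower in neurons and 24.7% higher. The shares of the lists were not tested against these. Of 16 genes of the lateral ganglionic eminence and striatum, 15 were lower in neurons at an FDR below 0.05 (edgeR), with a median log2 fold change of -3.23, and *Meis2* (0.10, FDR = 0.341) was not called. All 8 cortical progenitor genes were lower, with a median of -1.84. Of 8 tested genes of the caudal ganglionic eminence, 4 were lower and none higher, among them *Reln* (-1.27, FDR = 1.80e-04). Genes of cortical glutamatergic neurons went both ways, 6 of 12 higher and 6 lower, and *Eomes*, a gene of intermediate progenitors, was among the lower ones (-1.48, FDR = 0.00392, edgeR). Among the receptor genes, *Npy1r*, which encodes a receptor for neuropeptide Y, was higher in neurons (2.05, FDR = 0.0123), while *Npy*, its ligand, was lower, and 3 of the 6 tested were lower, including *Npy2r* (-1.57, FDR = 0.0133, all edgeR).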
